A study of Mus musculus with 12 samples.

Results

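The transcripts described here are those of the cytosolic ribosomal proteins, the protein parts of the ribosomes that translate nuclear-encoded mRNAs. A locus was taken when 1 of its gene names was Rpl or Rps followed by a number and the usual paralog letters, or was Rplp0, Rplp1, Rplp2 or Rpsa. Names of pseudogene form and the pair Rpl3 and Rpl3l were left out. This gave 86 of the 44450 listed loci, 49 of them for the large subunit and 37 for the small subunit. The rule uses gene names only.

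The samples were whole hearts of C57BL/6N mice aged 11 weeks. Control mice were Mrpp3loxP/loxP, with the Mrpp3 gene flanked by loxP sites on both alleles, and knockout mice were Mrpp3loxP/loxP, +/Ckmm, which adds a Cre recombinase driven by the muscle creatine kinase promoter. MRPP3, whose gene is now named Prorp, is the nuclease subunit of the mitochondrial RNase P, and the comparison addresses what its loss from muscle does to the RNA of the heart. There were 3 total RNA libraries in each group. Cre was carried only by the knockouts, so its effect and that of the deletion cannot be told apart, and cells of the heart other than striated muscle keep the gene.

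A ribosome pairs a large subunit, which joins amino acids, with a small subunit, which reads the mRNA. Each subunit is built in the nucleolus from ribosomal RNA and a fixed set of proteins, with the help of many assembly factors. Mammalian mRNAs for these proteins start with a terminal oligopyrimidine (TOP) tract, a run of C and U directly at the cap, which lets the mTORC1 kinase and the protein LARP1 control their translation and stability together. In the heart, growth under load raises ribosome number.

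RefSeq promoter sequences of assembly GRCm38.p6 were found for 62 of the 86 members, covering 250 bases before and 50 after the annotated start. A run of at least 8 pyrimidines (C or T, on the gene's strand) within 50 bases of the start was present in 49 of the 62 (79.0%), against 35.7% of all 27025 promoters in the same table. The ETS core CGGAAG, searched on both strands, was present in 43 (69.4%), against 17.2% of all promoters. The YY1 core ATGGCG, also on both strands, was present in 19 (30.6%), against 9.2%. In 3 members the pyrimidine run overlapped 1 of these cores. Sequences of 60 bases, 30 before and 30 from the annotated start on, are shown for 8 members with their longest pyrimidine run in capitals. Rps26, Rpl35, Rpl38, Rps10 and Rpl7a were higher in the knockouts, Rps18 and Rpl15 did not pass the test, and Rplp2 had lower values without passing, so that members that differ in response can be read against each other.
Rps26: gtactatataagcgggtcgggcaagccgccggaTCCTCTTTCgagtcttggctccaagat
Rpl35: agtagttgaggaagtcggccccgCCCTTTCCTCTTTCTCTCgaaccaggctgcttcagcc
Rpl38: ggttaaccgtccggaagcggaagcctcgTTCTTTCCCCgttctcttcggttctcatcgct
Rps10: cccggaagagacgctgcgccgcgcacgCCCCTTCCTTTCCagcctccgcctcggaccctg
Rpl7a: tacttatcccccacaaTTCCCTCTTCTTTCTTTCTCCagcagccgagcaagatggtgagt
Rps18: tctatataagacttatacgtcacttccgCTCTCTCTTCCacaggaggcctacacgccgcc
Rpl15: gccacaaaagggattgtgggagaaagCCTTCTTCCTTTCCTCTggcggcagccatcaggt
Rplp2: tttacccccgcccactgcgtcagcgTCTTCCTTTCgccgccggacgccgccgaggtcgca
In GRCm38.p6 these windows lie at chr10:128626477-128626536 (minus strand), chr2:39005102-39005161 (minus strand), chr11:114668550-114668609 (plus strand), chr17:27635215-27635274 (minus strand), chr2:26910777-26910836 (plus strand), chr17:33955636-33955695 (minus strand), chr14:18270957-18271016 (minus strand) and chr7:141447621-141447680 (plus strand), in the order shown. The 8 were picked from the 26 members whose run lies inside these 60 bases, and that each holds a run follows from this choice. In others, such as Rps16 and Rpl27, the longest run lies outside. Of the 59 members with both a promoter sequence and a test, 22 of 47 with a run and 5 of 12 without were higher in the knockouts. For the ETS core the counts were 20 of 41 with and 7 of 18 without, and for the YY1 core 6 of 17 with and 21 of 42 without. Over all tested loci 16.1% were higher, and the differences between these counts were not tested.

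Levels are given as FPKM, which corrects fragment numbers for the length of the transcript and the depth of the library, so that they can be set side by side between genes. The listed value of Prorp was 3.49, 2.64 and 3.23 FPKM in the controls and 0.441, 0.701 and 0.555 FPKM in the knockouts, lower in every knockout library. Between 11753 and 12272 loci reached 1 FPKM per library. Read totals are not given, and the steps between the lowest values put the other controls at 1.32 and 1.35 times and the knockouts at 2.57, 2.06 and 2.19 times the depth of control replicate 1. The labels number the samples as replicates without saying whether each is a separate animal, and the p-values here therefore reflect only the spread among these samples, which may be technical. In these whole-heart samples, fewer cells of a type and less RNA per cell cannot be told apart.

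Ribosomal protein mRNAs were mostly higher in the knockout hearts, by modest amounts. Of the 86 members, 80 reached 1 FPKM in at least 3 libraries and were tested. Knockout was compared with control by limma on log2(FPKM + 0.5), with Benjamini-Hochberg adjustment over all 12181 tested loci and a threshold of 0.05. By this test 38 of the 80 members (47.5%) rose, 2 fell and 40 did not pass. At an unadjusted limma p under 0.05, 48 were higher and 2 lower. Over all tested loci 16.1% rose and 19.5% fell. The fold change was positive for 73 members, with a median log2 fold change of 0.44 against -0.02 over all tested loci. In 57 members every knockout library lay above every control (23.6% of all tested loci), in 2 every knockout lay below (28.7%), and in 21 the groups overlapped. No member reached the filter only through the knockouts, and 79 of the 80 had at least 1 FPKM in every library.

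The members summed to 10339.9, 11328 and 12540.4 FPKM in the controls and 13832, 15329 and 14677 FPKM in the knockouts. The sums did not overlap, and the knockout mean was 1.28 times the control mean (14613 ± 750.3 against 11403 ± 1102, SD, n = 3 each). As a share of all FPKM this was 1.98%, 1.97% and 2.13% in the controls and 2.96%, 3.36% and 2.84% in the knockouts. The 70 members alone on their locus, of which 64 were tested, summed to 7923 ± 695.5 FPKM in the controls and 10979 ± 576 FPKM in the knockouts, a ratio of 1.39. The median deviation of the members from their control means was -0.11, -0.01 and 0.13 in the controls and 0.40, 0.51 and 0.44 in the knockouts on the log2 scale, where all tested loci stayed between -0.04 and 0.02. Control replicate 1 was the lowest of the 6 libraries for 56 of the 80 members, and control replicate 3 was the highest control for 65. The controls were thus spread along the same direction as the difference between the groups.

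**Figure D1:**
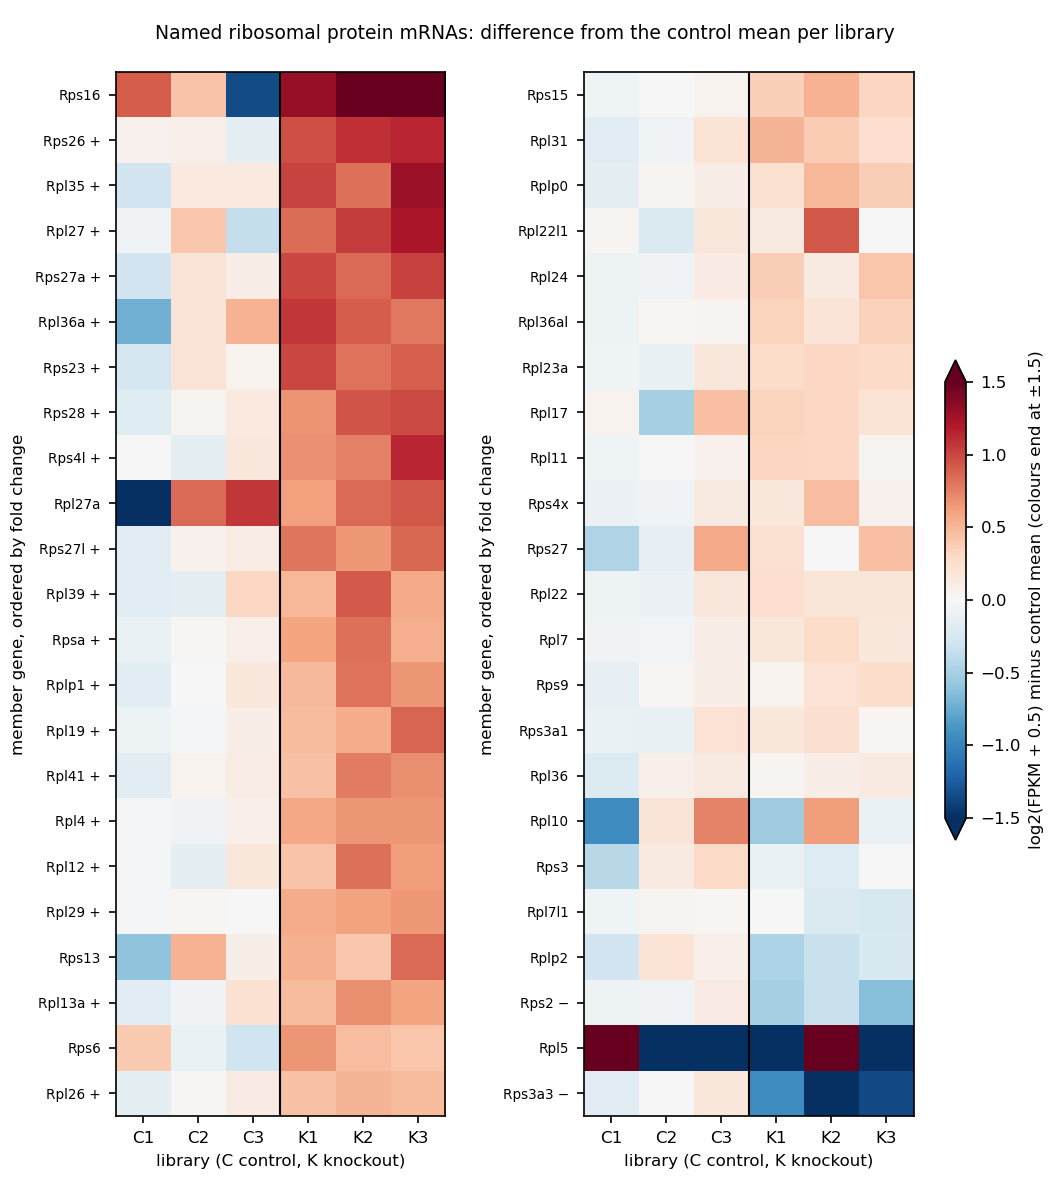
Colour gives log2(FPKM + 0.5) of the tested members chosen for naming (rows) in each library (columns, C control and K knockout) minus the mean of the 3 controls, with a plus sign for members that rose and a minus sign for the 2 that fell. The knockout columns are red for most rows, while Rps16, Rpl27a, Rpl10 and Rpl5 vary most within a group.

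How many members passed depended on single control libraries. Without control replicate 1, 13 members (16.2%) rose, where 10.5% of all tested loci did. Without control replicate 2, 10 members (12.5%) rose, a share near the 9.95% of all tested loci. Leaving out control replicate 3 gave 24 (30% of members and 10.8% of all loci), and knockout replicate 1 gave 24 (30% and 12.8%). Without knockout replicate 3 it was 26 (32.5% and 14.5%), and without knockout replicate 2 it was 41 (51.2% and 17.7%). The median log2 fold change of the members lay between 0.37 and 0.51 over these 6 fits, and between 71 and 75 members had a positive value. Among the 10 members that rose in all 6 fits were Rpl27, Rpl29, Rpl35, Rps23, Rps26, Rps27a, Rps27l, Rps28 and Rps4l. Scaling each library to an equal sum of FPKM moved the median of all tested loci to 0.20 and that of the members to 0.67. It turned the calls over all loci from 1966 higher and 2377 lower to 3229 (26.5%) and 1400 (11.5%), and called 60 members higher and 1 lower. Relative to all loci the members stood at 0.46 as deposited and 0.48 after this scaling.

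**Figure D2:**
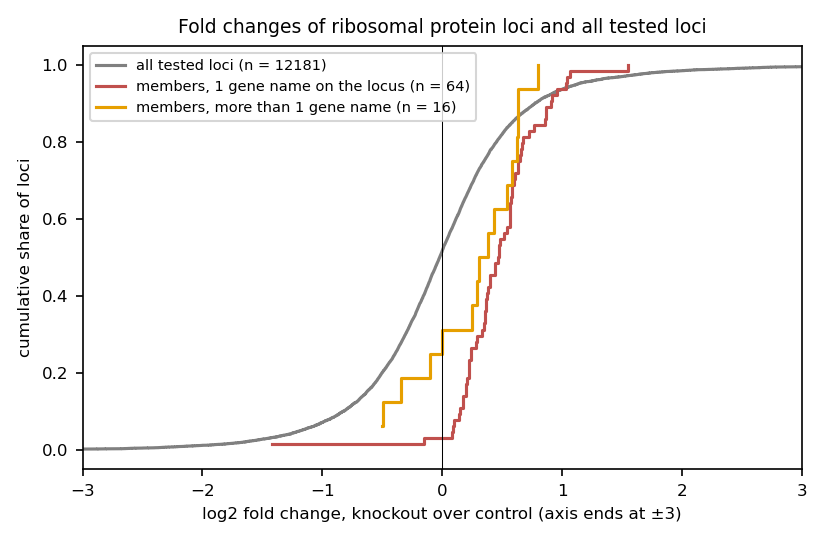
Cumulative share of loci (vertical axis) up to each log2 fold change of knockout over control (horizontal axis), for all 12181 tested loci, the 64 tested members alone on their locus and the 16 members on loci that carry further gene names. The curve of the single-name members lies to the right of all loci, with a median of 0.47, and the curve of the others has a median of 0.34.

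Both subunits took part. Of the 47 tested large-subunit members 23 rose and none fell, also with none lower at an unadjusted limma p under 0.05, and the median log2 fold change was 0.38 (range -0.50 to 1.04). Of the 33 small-subunit members 15 rose and 2 fell, with a median of 0.51 (range -1.42 to 1.55). The shares that rose were 48.9% and 45.5%, where 16.1% of all tested loci rose and 19.5% fell. The difference between the subunits was not tested. The share that rose was 30 of 62 among members with a control mean of at least 20 FPKM and 8 of 18 among those below, and 9 of 23 at 200 FPKM or more. The difference between these shares was not tested.

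Rps26 had the largest change among the members that rose. It encodes a small-subunit protein at the channel where the mRNA leaves the ribosome, and lies at chr10:128624529-128626506 (GRCm38.p6). Its level was 168, 170.5 and 146 FPKM in the controls and 315, 345 and 356 FPKM in the knockouts. The groups did not overlap, with a log2 fold change of 1.07 (SE 0.15, adjusted p = 0.00204) by limma, and the mean was 2.10 times that of the controls. This call held in every alternative fit.

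Rps28, which neighbours Rps26 at the same exit channel, measured 92.3, 107 and 116 FPKM in the controls and 167, 202 and 209 FPKM in the knockouts. Every knockout library was above every control, with a log2 fold change of 0.87 (SE 0.16, adjusted p = 0.00562) by limma. Rpsa, the small-subunit protein also known as the laminin receptor precursor, was at 99.2, 108 and 112 FPKM in the controls and 160.4, 189 and 156 FPKM in the knockouts. Its log2 fold change was 0.66 (SE 0.14, adjusted p = 0.0109) by limma, a call that was lost without control replicate 1 (adjusted p = 0.0502) or control replicate 2 (adjusted p = 0.0527). Rps3a1, the remaining member at the exit side, had overlapping groups at 159, 158 and 198 FPKM in the controls and 189.8, 202 and 174 FPKM in the knockouts, and its log2 fold change of 0.14 did not pass (limma, adjusted p = 0.497). Of the 4 members listed for the exit channel, 3 therefore rose, where 16.1% of all tested loci did.

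Of the 3 members listed for the side where the mRNA enters, none rose and 1 fell. At an unadjusted limma p under 0.05 none was higher and 1 lower. Among all tested loci 16.1% rose and 19.5% fell. Ribosomal proteins outside the name rule, such as that encoded by Fau, were not placed in the entry or exit group. The difference between the entry and exit proteins was not tested. Rps2, which lines the entry channel, measured 248, 252 and 286 FPKM in the controls and 185, 207 and 168 FPKM in the knockouts. All knockouts were below all controls and its log2 fold change was -0.49 (SE 0.15, adjusted p = 0.0413) by limma. The call was lost in 5 of the 6 fits without 1 library, all but the one without knockout replicate 2, at an adjusted p of 0.0760 to 0.146, and the log2 fold change was -0.26 (adjusted p = 0.22) with libraries scaled to an equal sum and -0.21 (adjusted p = 0.49) with quantile normalization, by limma. The Rps2 locus also carries the name of Snora64, a small nucleolar RNA made from an intron, and the value is shared between them. Rps3, also on a locus with a small nucleolar RNA (Snord15b), had the highest listed value of the members, shared in the same way. It was at 1168, 1714 and 1898 FPKM in the controls and 1452, 1360.0 and 1552 FPKM in the knockouts, with overlapping groups. Rps9 was at 232, 259 and 269 FPKM in the controls and 262, 293 and 304 FPKM in the knockouts and its log2 fold change of 0.18 did not pass (limma, adjusted p = 0.385).

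A further small-subunit group held proteins near the decoding centre together with Rps6, which was listed as a kinase target. Rps23, whose loop reaches the decoding site, measured 1.82, 2.64 and 2.36 FPKM in the controls and 5.02, 4.33 and 4.63 FPKM in the knockouts. The groups did not overlap, with a log2 fold change of 0.91 (SE 0.15, adjusted p = 0.00428) by limma. Loci with pseudogene-form names of Rps23 summed to more, at means of 16.8 FPKM in controls and 22.1 FPKM in knockouts. Of these, Rps23-ps1 had a log2 fold change of 0.39 that did not pass (limma, adjusted p = 0.0591). How reads were divided between Rps23 and these copies is not given, so its level and change are uncertain. Rps15 was at 369, 389.6 and 401 FPKM in the controls and 497, 554 and 483 FPKM in the knockouts, above every control in each knockout, with a log2 fold change of 0.40 that did not pass (limma, adjusted p = 0.0852). Rps6, the protein phosphorylated by the kinases downstream of mTORC1, was the tested member with the lowest control mean, at 1.83, 1.15 and 0.943 FPKM in the controls and 2.31, 1.93 and 1.87 FPKM in the knockouts. Its groups did not overlap, and its log2 fold change of 0.51 missed the threshold (limma, adjusted p = 0.0942). Of these 3 proteins 1 rose, where 16.1% of all tested loci did.

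Rps27a is made as a fusion with ubiquitin that is split after translation. It was at 3.84, 5.58 and 5.18 FPKM in the controls and 10.2, 9.06 and 10.3 FPKM in the knockouts, with every knockout above every control and a log2 fold change of 0.96 (SE 0.15, adjusted p = 0.00358) by limma. Rps16 had the largest fold change of all members, 1.55, but did not pass (limma, adjusted p = 0.0524). Its values were 7.20, 5.04 and 1.12 FPKM in the controls and 9.69, 13.8 and 11.5 FPKM in the knockouts, and control replicate 3 stood below the other controls. Without that library the log2 fold change of Rps16 was 0.88 (limma, adjusted p = 0.0327), and without control replicate 1 it was 2.01 (limma, adjusted p = 0.0307).

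**Figure D3:**
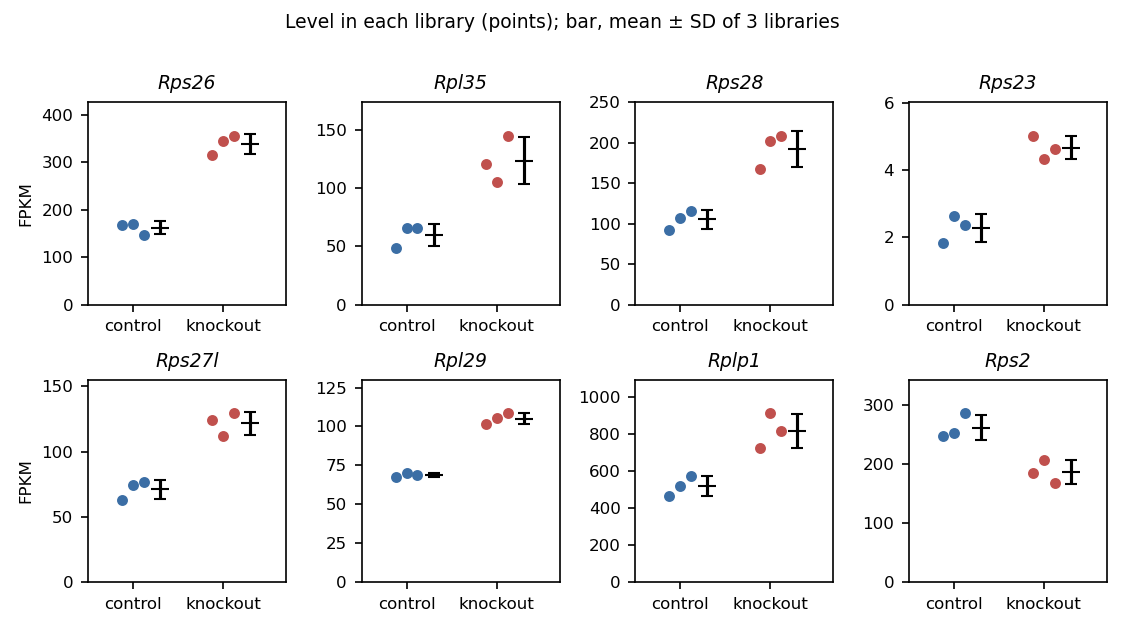
FPKM of 8 members in each library (points, 3 controls and 3 knockouts), with the group mean and SD as a bar beside them and axes starting at 0. In Rps26, Rpl35, Rps28, Rps23, Rps27l, Rpl29 and Rplp1 every knockout lies above every control, and in Rps2 every knockout lies below. The level of Rps23 is uncertain, because its pseudogene-named copies are listed higher.

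In the large subunit, the proteins around the exit of the peptide tunnel had 5 of 8 members that rose and none that fell. At an unadjusted limma p under 0.05, 7 were higher and none lower, and the median was 0.55 on the log2 scale. Of all members 47.5% rose, and of all tested loci 16.1% rose and 19.5% fell. The difference between this group and the other members was not tested. Rpl35, which sits at the tunnel rim, measured 48.7, 65.5 and 65.5 FPKM in the controls and 121, 106 and 145 FPKM in the knockouts. The groups were well apart, and the log2 fold change was 1.04 (SE 0.18, adjusted p = 0.00480) by limma. Rpl4, which reaches into the tunnel wall, measured 233, 231 and 252 FPKM in the controls and 356, 377 and 377 FPKM in the knockouts. The groups did not overlap, and limma gave a log2 fold change of 0.63 (SE 0.14, adjusted p = 0.0130). Rpl39, a very short protein inside the tunnel, was at 72.0, 73.1 and 99.9 FPKM in the controls and 114, 153 and 120.3 FPKM in the knockouts with a log2 fold change of 0.66 (SE 0.19, adjusted p = 0.0291) by limma, and its groups did not overlap.

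Rpl19 and Rpl26, at the tunnel rim and its surroundings, also rose. Rpl19 measured 85.2, 88.2 and 96.6 FPKM in the controls and 125, 133 and 165 FPKM in the knockouts and its log2 fold change was 0.64 (SE 0.15, adjusted p = 0.0160) by limma. Rpl26 measured 253, 283 and 304 FPKM in the controls and 378, 398 and 387 FPKM in the knockouts and its log2 fold change was 0.47 (SE 0.15, adjusted p = 0.0461) by limma. The calls of Rpl4, Rpl19, Rpl39 and Rpl26 were lost without control replicate 1 or control replicate 2, at adjusted p of 0.0522 and 0.0779 for Rpl4, 0.0643 and 0.0710 for Rpl19, 0.103 and 0.113 for Rpl39, and 0.151 and 0.154 for Rpl26 by limma. For Rpl26 the call was also lost without control replicate 3 (0.0914), knockout replicate 1 (0.102) or knockout replicate 3 (0.0625). The remaining members of this group, Rpl31, Rpl23a and Rpl17, had log2 fold changes of 0.38, 0.29 and 0.28 that did not pass (limma, adjusted p = 0.0662, 0.101 and 0.378).

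The P stalk is the flexible arm of the large subunit that recruits the elongation factors, and its 4 proteins were unequal. Rplp1 had the second highest listed value of the members. It measured 465, 519 and 576 FPKM in the controls and 727, 912 and 817 FPKM in the knockouts. Its groups did not overlap, and the log2 fold change was 0.65 (SE 0.19, adjusted p = 0.0316) by limma. Rplp2, which pairs with Rplp1 in equal numbers in the stalk, was at 213, 300.4 and 274 FPKM in the controls and 189, 206 and 222 FPKM in the knockouts. These groups overlapped through control replicate 1 and the log2 fold change of -0.34 did not pass (limma, adjusted p = 0.170). The Rplp2 locus also carries Snora52, and its value is shared.

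Rplp0, the base of the stalk, measured 255, 289 and 302 FPKM in the controls and 329.5, 398 and 363 FPKM in the knockouts. Every knockout lay above every control, but the log2 fold change of 0.36 did not pass (limma, adjusted p = 0.114). Rpl12, beside the stalk base, was at 5.01, 4.62 and 5.87 FPKM in the controls and 7.12, 9.50 and 8.19 FPKM in the knockouts on a locus shared with Snora65. The groups did not overlap, with a log2 fold change of 0.63 (SE 0.15, adjusted p = 0.0154) by limma, lost without control replicate 1 (0.0547) or control replicate 2 (0.0641). The call for Rplp1 was lost in 5 of the 6 fits without 1 library, at an adjusted p of 0.0510 to 0.121, the exception being the one without knockout replicate 2. So 2 of the 4 stalk proteins rose, neither in every fit, where 16.1% of all tested loci rose.

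Rpl5 and Rpl11 form, with the smallest ribosomal RNA of the large subunit, a particle that joins the subunit during assembly and can also bind MDM2. Rpl11 was at 27.1, 28.4 and 29.6 FPKM in the controls and 35.5, 35.3 and 29.3 FPKM in the knockouts and its log2 fold change of 0.23 did not pass (limma, adjusted p = 0.194). Rpl5 was listed at 392, 9.91 and 12.5 FPKM in the controls and 9.89, 186 and 9.12 FPKM in the knockouts. Control replicate 1 and knockout replicate 2 stood far above the other 4 libraries, on a locus shared with Snord21, so that no direction can be read. Rpl10 and Rpl24 join the large subunit late, in the cytoplasm. Rpl10, on a locus with Snora70, was at 29.8, 66.6 and 97.8 FPKM in the controls and 39.9, 89.6 and 54.3 FPKM in the knockouts with wide overlap. Rpl24, on a locus shared with Zbtb11, was at 56.6, 57.8 and 65.4 FPKM in the controls and 77.2, 65.8 and 80.2 FPKM in the knockouts, and its log2 fold change of 0.31 did not pass (limma, adjusted p = 0.114).

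Rpl29, a small protein of the large subunit, was the member with the tightest controls, relative to their mean, among the members named here that rose in all fits. It measured 67.4, 70.3 and 68.7 FPKM in the controls and 102, 105 and 108 FPKM in the knockouts. The gap between the groups was many times the spread within them, with a log2 fold change of 0.61 (SE 0.11, adjusted p = 0.00664) by limma. Rpl27 was listed at 3.26, 4.64 and 2.53 FPKM in the controls and 6.43, 7.53 and 8.60 FPKM in the knockouts, without overlap, and its log2 fold change was 1.04 (SE 0.21, adjusted p = 0.00864) by limma. This low level is uncertain, because how multiply mapping reads were counted is not given. Of the abundant members, Rpl41, which encodes the shortest ribosomal protein, was at 308, 359 and 376 FPKM in the controls and 471, 591 and 561 FPKM in the knockouts with a log2 fold change of 0.63 (SE 0.18, adjusted p = 0.0286) by limma. Its call was lost in 4 of the 6 fits without 1 library, at an adjusted p of 0.051 to 0.10. Rpl13a, on a locus with Flt3l and several small RNAs, was at 335, 364 and 445 FPKM in the controls and 525, 614 and 569.7 FPKM in the knockouts with a log2 fold change of 0.59 (SE 0.18, adjusted p = 0.0404) by limma, lost without any library but knockout replicate 2 (adjusted p = 0.0566 to 0.154). Rpl36 was at 252, 306 and 318 FPKM in the controls and 298, 312 and 319 FPKM in the knockouts, and its groups overlapped. Over the 38 members that rose, log2 fold changes ran from 0.37 (Rpl23) to 1.07 (Rps26).

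The second member that fell was Rps3a3, a locus that RefSeq classes as a pseudogene at chr13:108670580-108671443. It was listed at 6.82, 7.75 and 8.76 FPKM in the controls and 3.82, 1.58 and 2.72 FPKM in the knockouts. No values overlapped, and its log2 fold change was -1.42 (SE 0.26, adjusted p = 0.00560) by limma, a call that held in every alternative fit. Reads from such a copy and from its parent Rps3a1 can be assigned to either, so its level is uncertain. Among the 62 tested members that are alone on their locus and protein-coding in RefSeq, 31 rose and 61 had a positive fold change. None fell, and none was lower at an unadjusted limma p under 0.05, where 16.1% of all tested loci rose and 19.5% fell.

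Some loci also carry the name of a small nucleolar RNA, many of which are made from introns of ribosomal protein genes. Of the 10 such members 3 rose, Rps2 fell, 5 had a positive fold change and the median was 0.14. Of the 64 tested members alone on their locus 32 rose, and the difference between the groups was not tested. Over all tested loci 16.1% rose and 19.5% fell. The median within-group SD on the log2 scale was 0.20 for the 10 members, with 2.70 (Rpl5) as the largest, and also 0.20 over all tested loci, with 4.72 as the largest. For members alone on their locus it was 0.15, with 0.85 as the largest. Rpl27a, on a locus with Snora3, was listed at 8.72, 62.1 and 72.1 FPKM in the controls and 52.7, 62.0 and 65.8 FPKM in the knockouts, and control replicate 1 was far below the other 5 libraries. Its log2 fold change of 0.80 did not pass (limma, adjusted p = 0.412) and was -0.16 without that library. Whether the small RNAs contribute to these values was not tested.

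Several ribosomal proteins have a paralog that can take their place. Rps27l measured 63.0, 74.5 and 76.6 FPKM in the controls and 124, 112 and 129 FPKM in the knockouts, without overlap, and its log2 fold change was 0.77 (SE 0.14, adjusted p = 0.00538) by limma. Its partner Rps27 was listed far lower at 1.86, 2.46 and 4.26 FPKM in the controls and 3.27, 2.69 and 3.90 FPKM in the knockouts, with overlap. How multiply mapping reads were counted is not given, so these values cannot show which partner is the more abundant. Rps4l, an autosomal locus that RefSeq classes as a transcribed pseudogene, measured 11.2, 10.0 and 12.5 FPKM in the controls and 18.3, 19.2 and 25.4 FPKM in the knockouts, and its log2 fold change was 0.86 (SE 0.16, adjusted p = 0.00587) by limma. The X-linked Rps4x was at 201, 206 and 235 FPKM in the controls and 237, 294 and 223 FPKM in the knockouts with overlapping groups, and its log2 fold change of 0.23 did not pass (limma, adjusted p = 0.321).

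Rpl36a measured 4.46, 8.79 and 11.2 FPKM in the controls and 16.5, 14.8 and 13.6 FPKM in the knockouts, and its log2 fold change was 0.92 (SE 0.29, adjusted p = 0.0457) by limma. That call was lost in 5 of the 6 fits without 1 library, all but the one without control replicate 3, at an adjusted p of 0.0576 to 0.118. Its paralog Rpl36al, listed higher at 57.9, 62.1 and 62.8 FPKM in the controls and 76.6, 69.9 and 77.6 FPKM in the knockouts, had a log2 fold change of 0.29 that did not pass (limma, adjusted p = 0.0904). Rpl22 and Rpl22l1, which regulate each other's expression in other settings, did not pass either. Rpl22 was at 162, 160.3 and 192 FPKM in the controls and 203, 194 and 194 FPKM in the knockouts and Rpl22l1 at 25.6, 21.2 and 27.9 FPKM in the controls and 27.1, 47.7 and 24.8 FPKM in the knockouts, where knockout replicate 2 alone stood above the controls. Rpl7 had a log2 fold change of 0.20 and Rpl7l1 of -0.15, and neither passed (limma, adjusted p = 0.291 and 0.348). In these pairs no test of the difference between the partners was made.

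**Figure D4:**
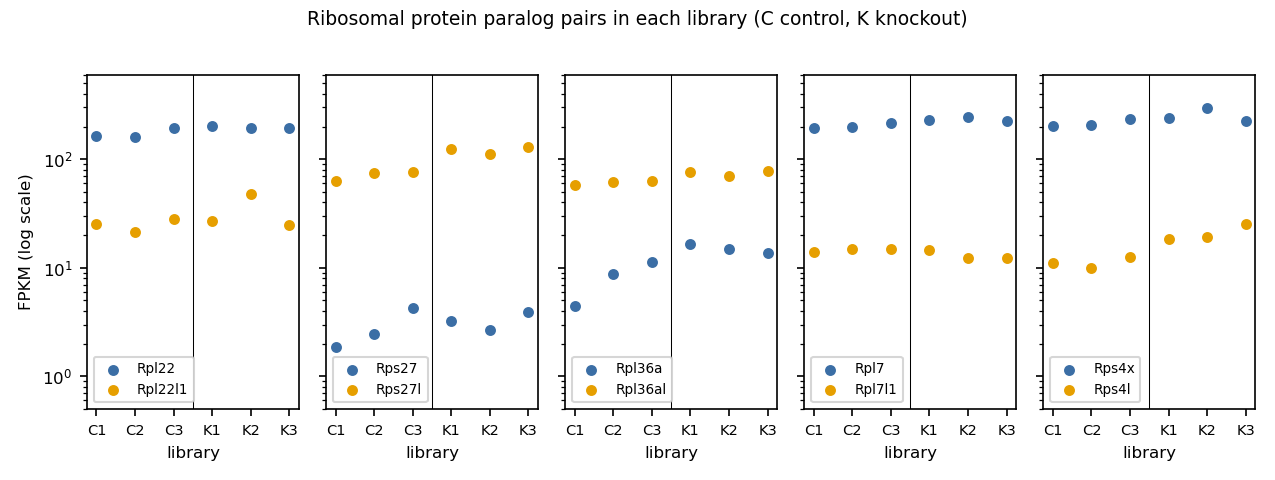
FPKM (vertical log axis) of 5 paralog pairs in each library (C control, K knockout), each pair in a panel. Rps27l is listed well above Rps27, whose level is uncertain, and is higher in all knockouts. Rps4l rises from 11.2 to 21.0 FPKM on average while Rps4x overlaps between the groups, and Rpl22l1 is high in knockout replicate 2 alone.

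The 6 members that were not tested were near or at 0. Rpl10l, a copy expressed in testis, was listed at 0 in every library. Rpl39l, a copy of Rpl39, was listed at 0 in every control, and the knockouts held 0.163, 0.113 and 0.212 FPKM. Rps12 was listed at 0.864, 0.438 and 0.641 FPKM in the controls and 1.24, 0.837 and 1.71 FPKM in the knockouts, overlapping by 1 library. Rps12l1, Rps12l2 and Rps3a2 stayed under 1 FPKM in every library.

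Rpl3 and Rpl3l, the large-subunit pair left out of the set, moved more than any member. Rpl3 was at 18.4, 23.1 and 25.6 FPKM in the controls and 93.2, 97.8 and 91.9 FPKM in the knockouts with a log2 fold change of 2.07 (SE 0.15, adjusted p = 0.000243) by limma. Rpl3l, the striated-muscle form, was at 88.2, 96.7 and 75.2 FPKM in the controls and 8.04, 2.01 and 5.48 FPKM in the knockouts with a log2 fold change of -4.11 (SE 0.41, adjusted p = 0.000619) by limma. The largest change of a member that rose was 1.07.

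Ribosomal proteins whose symbols do not follow the pattern include Fau and Rack1, and both rose. Fau, which encodes a small-subunit protein fused to a ubiquitin-like part, was at 6.71, 7.67 and 7.39 FPKM in the controls and 12.0, 11.5 and 14.9 FPKM in the knockouts with a log2 fold change of 0.77 (SE 0.13, adjusted p = 0.00493) by limma. Rack1, a signalling scaffold on the small subunit, was at 141, 155 and 178 FPKM in the controls and 235, 283 and 263 FPKM in the knockouts with a log2 fold change of 0.72 (SE 0.16, adjusted p = 0.0116) by limma, lost without control replicate 1 (0.0516) or control replicate 2 (0.0592).

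Factors that build ribosomes rose more often than they fell. Of 79 ribosome assembly factors 33 (41.8%) rose and 1 (1.27%) fell, where 16.1% of all tested loci rose and 19.5% fell, and the median log2 fold change was 0.40 against -0.02 over all tested loci. Nhp2, a protein of the box H/ACA particles that guide pseudouridine formation, was at 5.82, 7.03 and 7.05 FPKM in the controls and 24.5, 22.1 and 28.4 FPKM in the knockouts with a log2 fold change of 1.83 (SE 0.14, adjusted p = 0.000321) by limma. Rrp12, an export factor for both subunits, was at 3.12, 4.29 and 4.37 FPKM in the controls and 20.7, 9.89 and 15.4 FPKM in the knockouts with a log2 fold change of 1.79 (SE 0.26, adjusted p = 0.00256) by limma. Gnl3, a nucleolar GTPase, had a log2 fold change of 1.34 (SE 0.23, adjusted p = 0.00444) by limma. Nle1, an assembly factor of the large subunit, was the one that fell, at -0.70 (limma, adjusted p = 0.00473). Without control replicate 1 or control replicate 2, 20 of the 79 rose, where 10.5% and 9.95% of all tested loci did. Of 16 RNA polymerase I genes and regulators 2 rose, Myc (3.15, limma adjusted p = 0.000596) and Polr1e (0.89, limma adjusted p = 0.0180, and 0.0568 without knockout replicate 1), with a list median of 0.15. These are 12.5% of the list, below the 16.1% of all tested loci. With libraries scaled to an equal sum 7 of the 16 rose, where 26.5% of all tested loci did.

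Of 10 elongation factors and related genes, many with TOP mRNAs, 5 rose and 1 fell, with a median of 0.52. Among all tested loci 16.1% rose and 19.5% fell. Eef1e1 was counted among the 5, at 0.73 with overlapping groups (limma, adjusted p = 0.0394). The 4 that did not pass were Eef1b2 (0.28), Eef1d (-0.18), Eef1g (0.19) and Eef2k (0.49). Eef1a1, the widely expressed factor that brings tRNA to the ribosome, was at 309, 284 and 325 FPKM in the controls and 1122, 1967 and 1482 FPKM in the knockouts, far apart, with a log2 fold change of 2.28 (SE 0.24, adjusted p = 0.000794) by limma. Eef1a2, its muscle and neuron form, was at 343, 357 and 341 FPKM in the controls and 234, 155 and 219 FPKM in the knockouts with a log2 fold change of -0.80 (SE 0.19, adjusted p = 0.0163) by limma, lost without any 1 control (0.0523 to 0.0686). Without control replicate 1, control replicate 3 or knockout replicate 1, 3 of the 10 rose, where 10.5%, 10.8% and 12.8% of all tested loci did. With libraries scaled to an equal sum 8 of the 10 rose, where 26.5% of all tested loci did. Eif5a2, a paralog of the factor that helps ribosomes past stalling sequences, had a log2 fold change of 1.14 (SE 0.17, adjusted p = 0.00311) by limma at under 3 FPKM throughout. Of 18 tested further TOP transcripts 4 rose and none fell, with a median of 0.27. At an unadjusted limma p under 0.05, 5 were higher and none lower. The list holds noncoding hosts of small nucleolar RNAs, namely Gas5, Snhg5, Snhg6, Snhg8 and Snhg12, beside mRNAs. The share of 22.2% that rose is near the 16.1% of all tested loci. With libraries scaled to an equal sum 8 of the 18 rose, where 26.5% of all tested loci did. The 4 were Gas5 (1.34), Pabpc1 (1.32), Btf3 (1.06) and Eif4b (0.46), with limma adjusted p of 0.00147, 0.0131, 0.00225 and 0.0233. The Gas5 locus also carries Snord47, Snord78 and Snord80, and its value is shared.

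Among 25 regulators of TOP mRNAs and of mTORC1, 3 rose and 3 fell (12% each), with a median of 0.09. Both shares lie below those of all tested loci, of which 16.1% rose and 19.5% fell. Without knockout replicate 2, 5 rose (17.7% of all tested loci), and without knockout replicate 3, 5 fell (19.2% of all tested loci). With libraries scaled to an equal sum 8 rose and 3 fell, where 26.5% and 11.5% of all tested loci did. Sesn2 (3.36), a stress-induced inhibitor of mTORC1, Eif4ebp1 (2.31), the repressor of the cap-binding protein, and Rragc (0.67) rose, with limma adjusted p of 0.000593, 0.000754 and 0.00888. Eif4e (-1.13), which encodes the cap-binding protein, Sesn1 (-0.88) and Larp4 (-0.61) fell, with limma adjusted p of 0.00321, 0.0116 and 0.00678. Larp1 was at 14.9, 15.4 and 13.9 FPKM in the controls and 15.0, 15.5 and 19.3 FPKM in the knockouts, and its log2 fold change of 0.16 did not pass (limma, adjusted p = 0.380). Of 16 ribosome quality control genes 4 (25%) rose and 1 (6.25%) fell, with a median of 0.17, where 16.1% of all tested loci rose and 19.5% fell. Ascc2 (1.80) and Ascc3 (0.68), which split collided ribosomes, rose, with limma adjusted p of 0.000485 and 0.00479, and so did Pelo and Abce1. Pelo, at an adjusted p of 0.0137 by limma, was lost without control replicate 1 (0.0506) or control replicate 2 (0.0521). Without either of these libraries 2 of the 16 rose, where 10.5% and 9.95% of all tested loci did, and with libraries scaled to an equal sum 9 rose, where 26.5% did. Map3k20, a kinase that senses collided ribosomes, fell (-0.64, limma adjusted p = 0.00874).

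**Figure D5:**
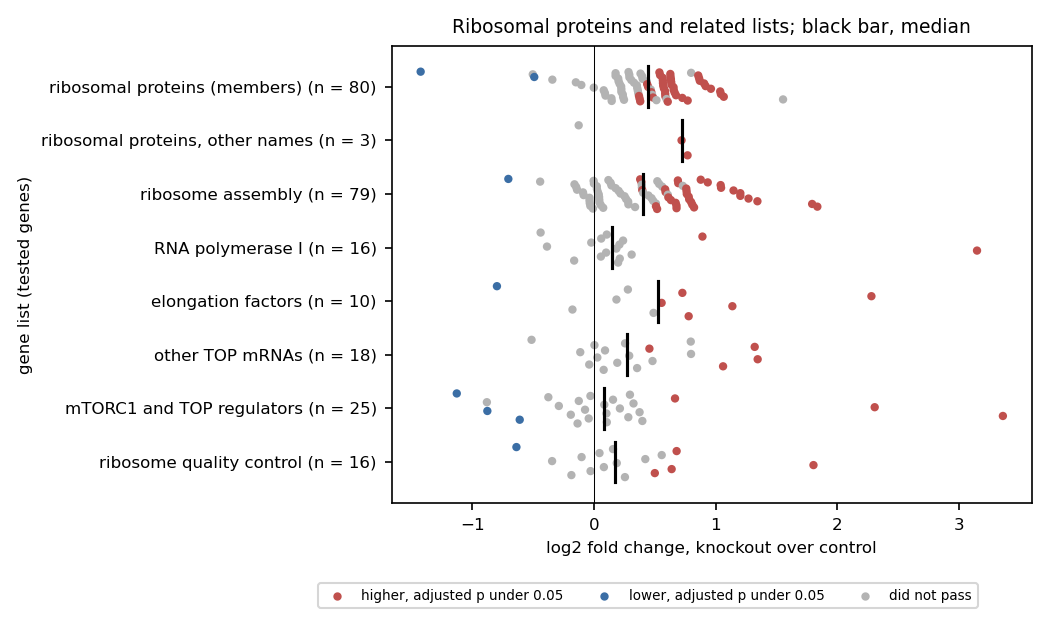
Log2 fold change of knockout over control (horizontal axis) of each tested gene in the ribosomal protein set and 7 related lists (rows, points), with the list median as a black bar and colour for genes that rose, fell or did not pass. The medians of the ribosomal proteins (0.44), the assembly factors (0.40) and the elongation factors with related genes (0.52) lie to the right of 0. That of the mTORC1 and TOP regulators lies at 0.09.

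Markers of cell types moved between the groups alongside the ribosomal proteins. Over all tested loci 16.1% rose and 19.5% fell. Of 8 cardiomyocyte markers 7 fell, and their summed level ranged over 34513 to 39734 FPKM in the controls and 7611 to 16601 FPKM in the knockouts. Of 8 macrophage markers 6 rose, with sums of 156 to 170.1 FPKM and 229.7 to 255 FPKM, and of 7 fibroblast markers 4 rose, with sums of 333 to 407 FPKM and 378 to 669 FPKM. The 4 were Col1a1, Col1a2, Col3a1 and Postn. Dcn was lower in every knockout, and Dcn, Pdgfra and Lum had log2 fold changes of -0.31, -0.26 and 0.63 that did not pass. None of 6 endothelial markers passed by limma (2 were lower and none higher at an unadjusted p under 0.05), with sums of 185 to 199.6 FPKM and 161 to 201 FPKM. Of 5 smooth muscle and pericyte markers 1 rose and 1 fell, with sums of 261 to 291 FPKM and 182 to 233 FPKM. Of 6 lymphocyte genes 5 (Cd3e, Cd3g, Cd79a, Cd79b and Ms4a1) were under 1 FPKM in every library, with Cd3e and Cd3g at 0 in some, and Ptprc did not pass. The lymphocyte sums were 4.24 to 4.81 FPKM and 5.09 to 9.004 FPKM. The part of these shifts in the ribosomal protein result was not tested.

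Atrial muscle and blood markers set knockout replicate 2 apart. The 5 atrial markers summed to 42.5 to 121 FPKM in the controls and 2066 to 14234 FPKM in the knockouts, 1 of the 3 tested rose, and Myl7, Sln and Bmp10 were at 0 in some library. The one that rose, Nppa, made up most of the knockout sums, at 1948, 10527 and 2327 FPKM. Myl4 was at 66.1, 2290 and 3.35 FPKM in the knockouts, Myl7 at 43.5, 911 and 0.096 FPKM, and Sln at 8.52, 118 and 0 FPKM. Bmp10 was at 0.785, 386 and 4.19 FPKM there. None of the 5 erythroid genes passed by limma, nor did any at an unadjusted p under 0.05, and their sum was 1572 to 2902 FPKM in the controls and 622 to 21895 FPKM in the knockouts. Both sums were highest in knockout replicate 2, which was also the highest library for 33 of the 80 ribosomal protein members. Without it 41 members rose (17.7% of all tested loci) and the median log2 fold change of the members was 0.42.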

How the data were processed

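The series holds 12 libraries. The 6 total RNA libraries were analysed, and the other 6, of mitochondrial RNA by PARE, were not analysed here. Per the labels' protocols, RNA was depleted of rRNA with Ribo-Zero and primed with random hexamers. The deposited values are FPKM per locus, with 1 library per file. The submitters' processing notes name the aligners HISAT 0.1.6 and HISAT2 2.0.1, the tools Cufflinks 2.2.1, StringTie 1.1.0, Cuffdiff, Picard 1.23, SAMtools 1.3 and bedtools, and the builds GRCm38 and mm10. What each did, which annotation was used, whether libraries were scaled to each other and whether counting used strand is not given in the sources used here. Multiply mapping fragments and merged loci can therefore shift members with pseudogenes, paralogs or intronic small RNAs.

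Loci that reached 1 FPKM in 3 or more of the 6 libraries were fitted by limma 3.58.1 (R 4.3.3, two-sided, empirical Bayes with a mean-variance trend) on log2(FPKM + 0.5) without further scaling, which understates changes of low genes. Adjusted p-values are Benjamini-Hochberg over all tested loci. FPKM keep no counts, so no count model was used. The members, role groups, related lists and cell type markers were chosen with earlier results of these data known, and no list was tested. Named members were the 8 largest rises and the 2 falls past the threshold, the 6 highest and 4 lowest levels, the role groups, paralog pairs and untested members, and up to 3 genes per related list. Rps16, Rpl27a, Rpl29 and list genes past 3 were named after their values were seen. Positions, biotypes and promoters are from RefSeq (GRCm38.p6), in which 85 of the 86 members were matched. Some members and list genes are counted but not reported here by name. Alternatives changed the pseudocount, filter, scaling, variance model, weights, replicate block and libraries.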

Additional observations from a re-analysis of the deposited data

How the results depend on the processing

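The number of members higher was 38 and that of members lower 2. For all tested loci higher and all tested loci lower the numbers were 1966 and 2377. With libraries scaled to a sum of 1000000 they became 60 and 1, and 3229 and 1400. With loci of mitochondrial DNA removed before that scaling they became 63 and 1, and 3379 (27.8%) and 1282. In these 2 settings the median log2 fold change of members moved from 0.44 to 0.67 and 0.71, and the ratio of the summed FPKM of members, knockout over control, from 1.28 to 1.51 and 1.54. Quantile normalization gave 0.57 and 1.55. Members lower was also 1 without a filter, with median-of-ratios scaling, with quantile normalization, with the replicate block and on loci with 1 gene name. Leaving out 1 library each gave 10 to 41 members higher, 1 to 2 lower, 1212 to 2153 of all tested loci higher and 1409 to 2389 lower.

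Same-numbered samples did not deviate together (r = -0.08, -0.06 and -0.01 across genes, which are not independent replicates). Samples with different numbers had r of -0.08 to 0.12. With 3 libraries per group such values cannot show whether the numbers pair the samples. With the replicate block 17 members were higher, all of them among the 38 (12.6% of all tested loci were higher). The limits are the unknown scaling and counting behind FPKM, 3 libraries per group and deeper knockout libraries. Directions that turned were all of members that did not pass. With the 2 sum scalings in the order above, Rpl10 went from -0.00091 to 0.23 and 0.26, Rpl7l1 from -0.15 to 0.075 and 0.11, and Rps3 from -0.10 to 0.13 and 0.16. Rpl10 was 0.036 with median-of-ratios scaling and 0.12 with quantile normalization, and Rps3 was 0.21 with the latter. With 1 library left out, values ran from -0.48 to 0.37 for Rpl10, -0.31 to 0.038 for Rps3, -1.91 to 1.19 for Rpl5, -0.16 to 1.33 for Rpl27a and -0.012 to 0.16 for Rpl36.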

Other observations

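Ribosomal protein genes have left many processed copies in the mouse genome, and loci with pseudogene-form names were listed beside the members. Of 259 such loci, 131 were above 0 in any library and 43 were tested, of which 12 rose and none fell by limma at an adjusted p threshold of 0.05 (16.1% of all tested loci rose), also with none lower at an unadjusted p under 0.05. Their median log2 fold change was 0.39. They summed to 384, 442 and 449 FPKM in the controls and 543, 608 and 555 FPKM in the knockouts. Rps26-ps1 was listed at 5.48, 4.74 and 6.24 FPKM in the controls and 10.8, 10.6 and 8.99 FPKM in the knockouts. Its log2 fold change was 0.83 (adjusted p = 0.00416 by limma), beside the rise of Rps26. Rpl3-ps1 was listed at 2.40, 2.53 and 2.61 FPKM in the controls and 10.5, 10.6 and 9.86 FPKM in the knockouts. Its log2 fold change was 1.85 (adjusted p = 0.000116 by limma), beside the rise of Rpl3.

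At least 1 such locus was listed for 56 members. For 6 of them, Rpl36a, Rps23, Rps6, Rpl23a, Rpl17 and Rps12, the copies summed to more FPKM in the controls than the member itself. Mean sums of the copies in controls and knockouts were 26.8 and 49.8 FPKM for Rpl36a, 16.8 and 22.1 FPKM for Rps23, 63.1 and 64.6 FPKM for Rpl23a, and 20.7 and 29.9 FPKM for Rpl17. For the same genes the member itself averaged 8.16 and 14.9 FPKM, 2.27 and 4.66 FPKM, 32.4 and 39.6 FPKM, and 2.35 and 2.86 FPKM. How reads were divided between members and copies was not tested.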
